A study of Mus musculus with 4 samples.

Results

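DNA methylation of first introns was described beyond the reach of the promoter in the livers of 4 mice. A cytosine was included when it was autosomal, had at least 10 reads in every mouse, lay in the first intron of the longest RefSeq NM_ transcript of its gene, was 1 kb or more from any transcription start site (TSS) and lay outside all annotated exons. The longest transcript was the one with the largest genomic span, and the TSSs of all annotated transcripts counted, predicted models included. These criteria gave 44783 cytosines in 38487 CpG dinucleotides, which is 3.57% of the 1253673 autosomal CpG cytosines common to the mice, out of 1276684 common cytosines in all. Of 273806 common cytosines in first introns, 225125 lay within 1 kb of a TSS and 3898 others lay in an exon, so that most first-intron cytosines of these libraries lay near a TSS. The remaining cytosines fell in 4431 of 17995 first introns, with a median of 5 and at most 200 per intron, and 516 introns held 1 cytosine.

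Methylation was measured by enhanced reduced representation bisulfite sequencing (ERRBS), in which genomic DNA is cut with restriction enzymes, MspI and TaqαI by the description in the study, and the size-selected fragments are sequenced after bisulfite treatment. Mixed-1 and Mixed-2 were males of an undefined mixed background that includes C57BL/6J and other strains, and B6-1 and B6-2 were C57BL/6 males. All were fed a normal diet and their livers were taken at 6 to 8 weeks of age. The 2 strains were kept at different institutions, and the effects of strain, housing and depth cannot be separated here. Coverage summed over all CpG cytosines of a library ran from 60654199 to 99215153. A read counts in this sum once for every CpG cytosine it covers. The first-intron cytosines had a median coverage of 35 and 40 reads in the Mixed libraries against 58 and 56 reads in the B6 libraries. The B6 libraries were thus the deeper pair. Wherever 4 values are listed below without names, they belong to Mixed-1, Mixed-2, B6-1, B6-2, in that order. Whole liver was used, which holds hepatocytes and other cells. Of 10 hepatocyte markers, 3 had measured cytosines within 1 kb of a TSS, with mean methylation of 2.07% at Foxa3, 28.7% at Hnf4a and 29.95% at Fgb. Of 9 blood and immune markers, 4 were measured, among them Ikzf1 with 0.520%, Vav1 with 21.6% and Spi1 with 77.7%.

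In mammals, most CpGs of the genome are methylated, while CpG-rich promoters are kept free of methylation. Introns are transcribed with the gene and removed from the RNA by splicing, and the first intron is often the longest one. It can hold enhancers, CpG islands and the promoters of shorter transcripts, so its sequence belongs partly to the regulation of the gene and partly to the gene body, which is usually methylated in expressed genes.

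Neighbouring first-intron cytosines at most 300 bp apart were joined, and runs of 4 or more were called clusters. There were 4272 clusters in 2430 genes. A cluster was called low when its mean was below 20% in every mouse and high when it was above 80% in every mouse, the bounds that separate hypomethylated from hypermethylated CpGs. To show what such stretches look like, 300 bp around the middle of a cluster are printed 5′ to 3′ on the strand of the gene, from the RefSeq GRCm38 (mm10) assembly. Capitals mark the CpG dinucleotides with a measured cytosine. The first 3 are among the 4 low clusters with the most cytosines (1 per gene), the next 2 are the high clusters with the most, and the last 2 were chosen after their values were seen, as the low cluster with the most cytosines at 10 kb or more from any TSS and a low cluster from the same intron as a printed high one.

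Ywhaz, low, chr15:36792622-36792921, minus strand: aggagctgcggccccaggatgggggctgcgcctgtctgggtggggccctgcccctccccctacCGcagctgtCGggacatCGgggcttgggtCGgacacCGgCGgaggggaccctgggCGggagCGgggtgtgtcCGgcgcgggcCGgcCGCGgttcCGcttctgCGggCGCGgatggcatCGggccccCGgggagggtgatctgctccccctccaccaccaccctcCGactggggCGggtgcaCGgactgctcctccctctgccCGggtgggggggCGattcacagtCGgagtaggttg
Adgrb1, low, chr15:74519081-74519380, plus strand: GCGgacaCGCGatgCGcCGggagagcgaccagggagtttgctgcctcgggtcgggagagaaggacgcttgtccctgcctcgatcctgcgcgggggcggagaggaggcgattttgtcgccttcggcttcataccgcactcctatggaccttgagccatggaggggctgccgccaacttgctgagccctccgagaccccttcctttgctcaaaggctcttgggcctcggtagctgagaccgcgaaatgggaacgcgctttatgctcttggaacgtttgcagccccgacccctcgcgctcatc
Nr2f2, low, chr7:70361876-70362175, minus strand: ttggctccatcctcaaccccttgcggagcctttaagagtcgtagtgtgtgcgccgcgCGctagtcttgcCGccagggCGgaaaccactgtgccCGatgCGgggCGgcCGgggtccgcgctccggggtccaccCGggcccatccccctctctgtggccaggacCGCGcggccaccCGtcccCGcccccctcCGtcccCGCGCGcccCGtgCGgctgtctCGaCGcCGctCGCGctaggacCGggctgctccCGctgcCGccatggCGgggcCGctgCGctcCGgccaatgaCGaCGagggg
Ccdc85c, high, chr12:108242739-108243038, minus strand: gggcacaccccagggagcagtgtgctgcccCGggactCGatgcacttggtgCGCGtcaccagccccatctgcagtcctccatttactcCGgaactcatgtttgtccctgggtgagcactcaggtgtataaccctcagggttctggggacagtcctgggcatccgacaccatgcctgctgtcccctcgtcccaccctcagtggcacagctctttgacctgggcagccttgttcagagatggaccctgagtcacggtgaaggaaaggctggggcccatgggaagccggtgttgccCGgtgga
Cdh22, high, chr2:165192030-165192329, minus strand: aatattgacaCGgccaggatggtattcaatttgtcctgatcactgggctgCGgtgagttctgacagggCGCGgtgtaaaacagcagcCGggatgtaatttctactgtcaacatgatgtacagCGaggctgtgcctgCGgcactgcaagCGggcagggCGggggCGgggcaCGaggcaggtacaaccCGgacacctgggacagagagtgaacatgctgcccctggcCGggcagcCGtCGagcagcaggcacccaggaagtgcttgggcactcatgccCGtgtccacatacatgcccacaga
Fam149a, low and distal, chr8:45358414-45358713, minus strand: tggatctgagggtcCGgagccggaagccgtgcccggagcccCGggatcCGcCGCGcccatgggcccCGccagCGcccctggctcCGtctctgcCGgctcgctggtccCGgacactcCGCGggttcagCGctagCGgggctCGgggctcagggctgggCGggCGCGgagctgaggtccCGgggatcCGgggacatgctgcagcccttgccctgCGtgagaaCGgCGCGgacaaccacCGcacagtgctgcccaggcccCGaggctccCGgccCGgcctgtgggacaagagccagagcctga
Cdh22, low and distal, chr2:165195723-165196022, minus strand: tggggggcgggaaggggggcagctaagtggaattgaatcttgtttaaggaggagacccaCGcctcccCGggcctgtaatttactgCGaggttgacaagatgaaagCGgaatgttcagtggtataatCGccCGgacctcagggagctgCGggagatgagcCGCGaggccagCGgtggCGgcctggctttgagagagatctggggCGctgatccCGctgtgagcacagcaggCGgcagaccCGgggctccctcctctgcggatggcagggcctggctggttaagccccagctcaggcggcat

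All 7 windows were intronic, with no base in an annotated exon. The 4 low windows other than that of Cdh22 held between 28 and 41 CpGs in 300 bp, and the low window of Cdh22 held 18. The high window of Ccdc85c held 10 CpGs at a GC content of 62%, and that of Cdh22 held 16 at 60%. The middle of the Adgrb1 cluster fell between its measured stretches, and 5 of the 28 CpGs printed were measured. The 2 windows of Cdh22, which encodes a cadherin, were close in composition, with ratios of observed to expected CpGs of 0.6 in the high and 0.632 in the low one.

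The mean methylation of the first-intron cytosines was 53.1% and 53.4% (Mixed) and 52.3% and 52.7% (B6), or 52.9% ± 0.470 (SD, n = 4). The mice thus differed little, with Mixed-2 highest and B6-1 lowest. First-intron cytosines outside exons but within 1 kb of a TSS averaged 2.44% ± 0.0369, and all common autosomal cytosines averaged 28.4% ± 0.148. Per cytosine the distribution had 2 peaks. The bin below 10% held 27.7% ± 0.245 (SD, n = 4) of the first-intron values and the bin from 90% held 23.8% ± 1.15. In all mice at once, 12909 cytosines (28.8%) were below 20% and 12115 (27.1%) were above 80%. Over all common autosomal cytosines these shares were 64.0% and 17.2%. Another 29.5% had a mean between 20% and 80%, against 11.7% of all common autosomal cytosines and 2.89% of those within 1 kb of a TSS. Later introns of the same transcripts, compared below, had nearly the same share as first introns, 27.998%. This share thus did not set first introns apart from later ones. In whole liver, a mean in this range can come from a mixture of methylated and unmethylated cells or from every cell in part. These cannot be told apart.

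**Figure D1:**
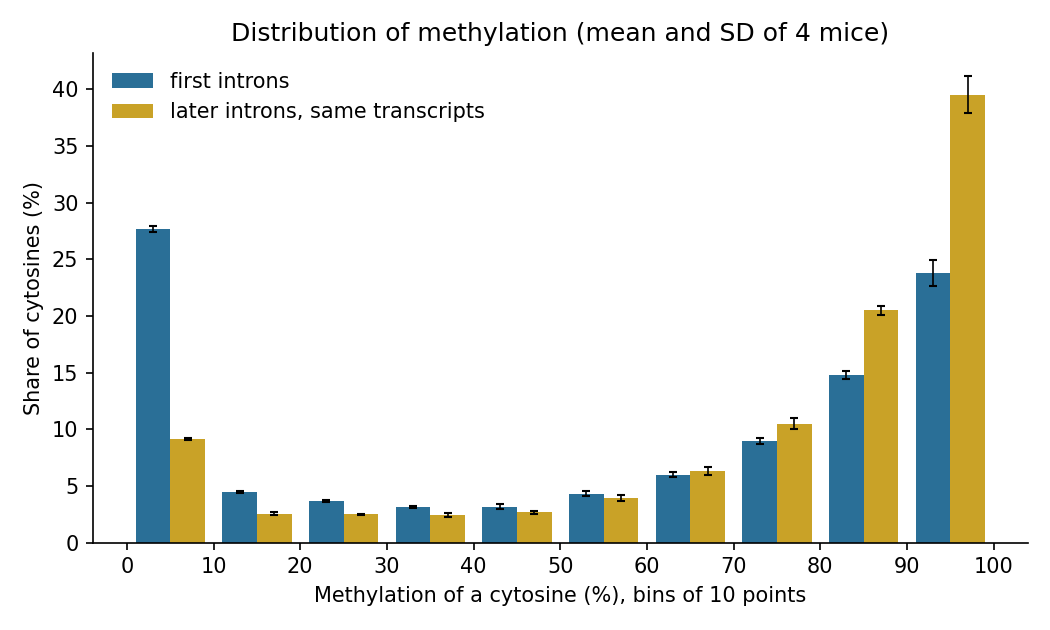
Share of cytosines (y axis, %) in bins of 10 points of methylation (x axis, %) for first introns and for later introns of the same transcripts. Bars are means of the 4 mice and error bars are SDs. The lowest bin holds 27.7% of first-intron and 9.15% of later-intron values, and the highest bin 23.8% and 39.5%.

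Single cytosines were close between mice. Over the 44783 cytosines, Pearson's r between the 6 pairs of mice ran from 0.963 to 0.969, a description across sites that share their libraries and their introns. The range over the 4 mice had a median of 10.2 points, and 10.2% of the cytosines had a range of 25 points or more. Introns differed more from each other than cytosines within an intron did. Among the 1304 introns with at least 10 cytosines, the intron means had an SD of 29.98 points, while the SD between the cytosines of an intron had a median of 21.6 points. Of these introns, 282 had a mean below 20% in all mice, 223 had a mean above 80% in all mice, and 799 were neither.

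Methylation rose with the distance from the TSS of the transcript. At 1 to 2 kb the 2 Mixed mice both had 16.4%, B6-1 had 16.0% and B6-2 16.1% over 9304 cytosines. At 2 to 5 kb it had reached 45.6% ± 0.427 (SD, n = 4), at 5 to 10 kb 60.1% ± 0.531 and at 10 to 20 kb 65.8% ± 0.611. Beyond that it changed less, with 67.1% ± 0.5997 at 20 to 50 kb and 73.6% ± 0.585 at 50 kb and more. Each step was upward in all 4 mice, and the values of neighbouring bins overlapped between mice only from 10 to 20 kb to 20 to 50 kb. In the finer bins of the plot of methylation by distance, the rise was not even. Methylation was lower in all 4 mice at 19694 to 27425 bp (64.7%, 65.7%, 64.2% and 64.9%) than in the bin before it (66.8%, 67.4%, 65.8% and 66.6%). A smaller fall in all 4 mice came at 38191 to 53183 bp, with 68.2%, 68.6%, 67.1% and 67.7%. The bin before it had 68.6%, 69.0%, 67.7% and 68.1%. Methylation was lower again at 143620 to 200000 bp, where 620 cytosines had 68.4%, 68.3%, 67.1% and 67.2%. Its bin before had 76.3%, 77.6%, 76.6% and 76.7%. Cytosines 20 kb or more from the TSS were above those at 1 to 2 kb by 53.7 and 54.4 points in Mixed-1 and Mixed-2 and by 53.4 and 53.8 points in B6-1 and B6-2, a mean of 53.8 ± 0.414. The two-sided exact sign-flip permutation test gave p = 0.13, the smallest p that 4 mice allow. The share of cytosines below 20% in every mouse fell from 74.4% at 1 to 2 kb to 6.96% at 50 kb and more, while the share above 80% went from 5.09% to 41.3%.

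**Figure D2:**
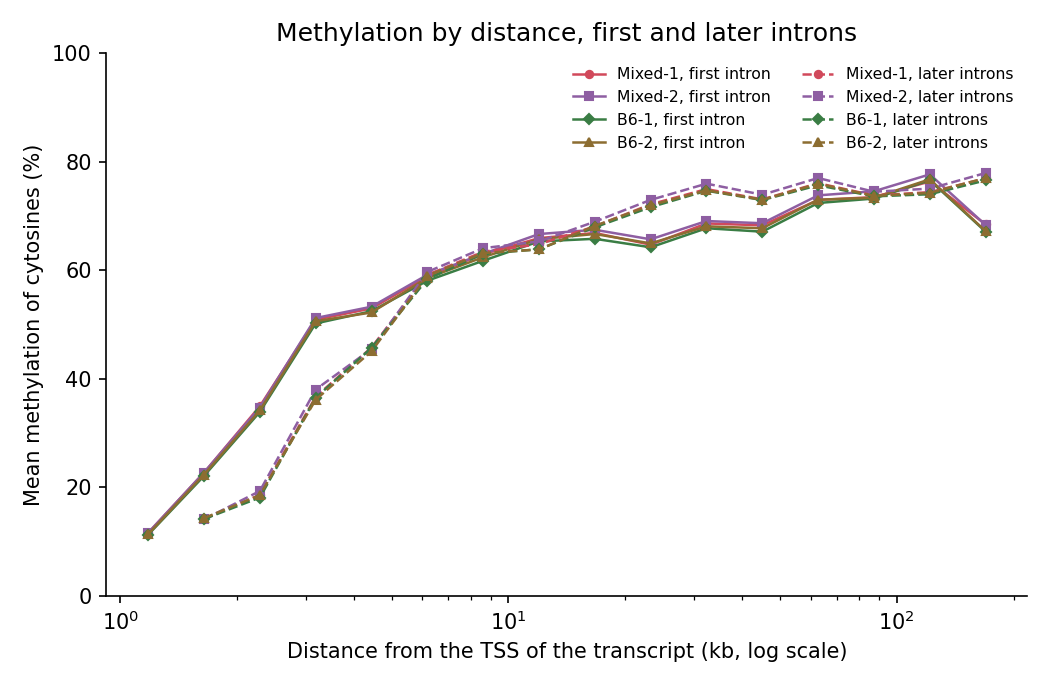
Mean methylation (y axis, %) by distance from the TSS of the transcript (x axis, kb, log scale), 1 line per mouse, solid for first introns and dashed for later introns of the same transcripts. Points stand for distance bins with at least 50 cytosines. In first introns the lines climb from between 11.2% and 11.6% in the nearest bin to over 60% by 10 kb and fall in the last bin, with the 4 mice nearly on top of each other.

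The bound of 1 kb cut through this rise. First-intron cytosines just outside it, at 800 to 999 bp from any TSS, averaged 8.41% ± 0.148 (SD, n = 4, 7547 cytosines), and those just inside, at 1000 to 1199 bp, averaged 13.8% ± 0.165 (4585 cytosines). The start sites of other transcripts could be compared in the same way. Among cytosines 5 kb or more from their own TSS, the 1819 that lay within 2 kb of the TSS of another transcript averaged 42.1% ± 0.516, whereas the 23213 with no TSS within 5 kb averaged 69.7% ± 0.566. Position within the intron gave 1 step. With each intron divided into 5 equal parts, the means from the 5′ end to the 3′ end were 32.7%, 57.7%, 60.4%, 61.8% and 61.0%, and the last 1 kb of introns, where it lay 20 kb or more from the TSS, averaged 76.0% ± 0.704 over 430 cytosines. Longer introns held more methylated cytosines, from 28.4% ± 0.325 in introns under 5 kb to 62.9% ± 0.544 in those of 50 kb and more. At a fixed distance of 2 to 5 kb this order was not seen, with 47.8% ± 0.461 in introns of 5 to 20 kb, 48.2% ± 0.754 in those of 20 to 50 kb and 38.6% ± 0.300 in those of 50 kb and more.

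CpG density moved with the same values. Cytosines with 1 to 4 CpGs in the surrounding 300 bp averaged 72.1% ± 0.766 (SD, n = 4), those with 10 to 14 averaged 49.7% ± 0.296, and those with 20 or more averaged 4.63% ± 0.120. Density also fell with distance, from a mean of 18.1 CpGs per window at 1 to 2 kb to 7.51 at 50 kb and more. Within a class of density, distance still ordered the values, and the reverse held too. Windows with 5 to 9 CpGs averaged 43.4% ± 0.401 within 2 kb of the TSS and 72.3% ± 0.717 at 20 kb and more. The densest windows, with 20 CpGs or more, averaged 1.38% ± 0.0989 within 2 kb and 19.7% ± 0.417 at 20 kb and more, where 74.2% of their 527 cytosines were still below 20% in every mouse. Repeats were the more methylated part, with 75.4% ± 0.302 over the 4236 first-intron cytosines on soft-masked bases against 50.5% ± 0.490 over the others.

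Later introns of the same transcripts served as the comparison, with the same filters on TSSs and exons. They held 56440 cytosines in 10009 introns of 3058 transcripts. Mixed-1 and Mixed-2 averaged 72.6% and 73.4% there, and B6-1 and B6-2 averaged 72.3% and 72.5%, above the first introns in every mouse. The differences were 19.5, 19.96, 19.9 and 19.7 points in the same order, with a mean of 19.8 ± 0.204 (two-sided exact sign-flip permutation p = 0.13, the smallest possible with 4 mice). Cytosines below 20% in every mouse made up 9.68% of the later-intron sites and those above 80% made up 45.1%. By position in the transcript, the second introns averaged 67.6% ± 0.577, the third 71.4% ± 0.515, and those from the eighth on 76.4% ± 0.469. The gap between the first and second introns was thus the largest step between neighbouring positions.

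**Figure D3:**
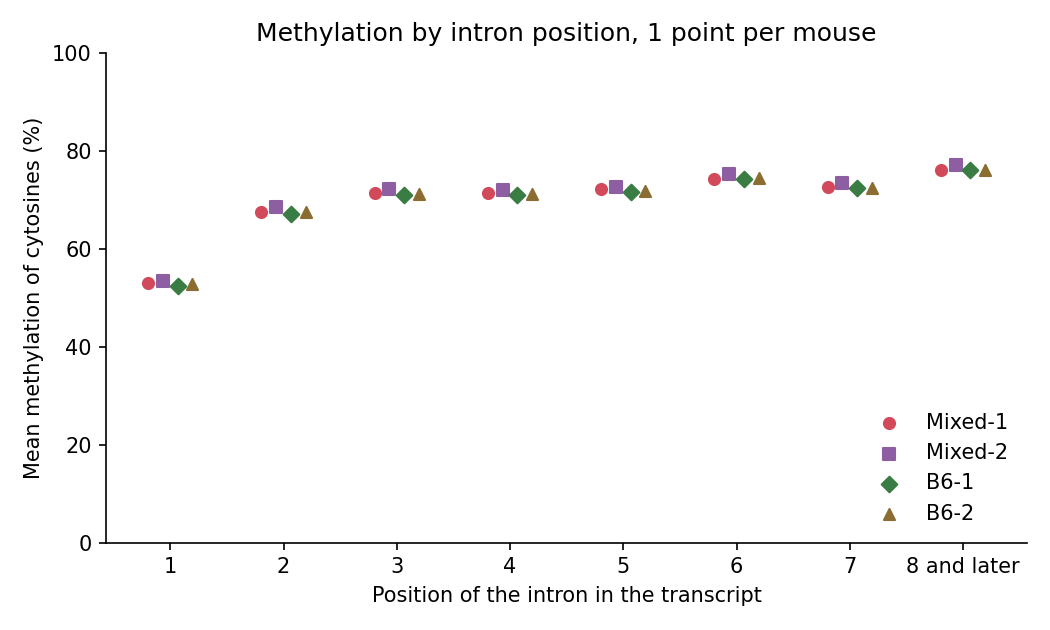
Mean methylation (y axis, %) of cytosines by the position of their intron in the transcript (x axis), 1 point per mouse. First introns lie between 52.3% and 53.4% and all later positions between 67.1% and 77.1%.

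First and later introns had few distances in common. Of the later-intron cytosines, 161 lay at 1 to 2 kb from the TSS, against 9304 in first introns, and 37616 lay at 50 kb and more, against 6986. With later introns weighted to the distances of the first introns, the difference was -0.365, -0.183, -0.0146 and -0.213 points in the same order of mice, a mean of -0.194 ± 0.144 (exact sign-flip permutation p = 0.13). This mean joined distances of opposite sign. At 2 to 5 kb, later introns were lower than first introns by a difference of -8.65 ± 0.232 points (later minus first, SD, n = 4, 863 later-intron cytosines), and at 1 to 2 kb by -2.15 ± 0.225. At 20 to 50 kb they were higher by 6.26 ± 0.212 points, 73.4% against 67.1%, and at 50 kb and more by 1.16 ± 0.128 points. Every mouse had the sign of the mean in each of these bins. The value also rested on which transcripts supplied the later introns. With the later introns of all longest transcripts (114708 cytosines, 2494 of them at 1 to 2 kb) the matched difference became 8.16 points, with later introns higher at every distance. Matching for distance and CpG density together gave 2.79 points within the same transcripts. Both settings were chosen after the data had been seen.

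At matched CpG density the later introns stayed higher, by 12.9, 13.2, 13.3 and 13.1 points in the 4 mice, a mean of 13.1 ± 0.175 (exact sign-flip permutation p = 0.13). The difference was largest at intermediate density. Windows with 15 to 19 CpGs averaged 22.2% in first and 57.7% in later introns, a difference of 35.5 ± 0.251 points (SD, n = 4). At the lowest density, 1 to 4 CpGs, the difference was 6.17 ± 0.237 points, with 72.1% and 78.3%. These classes were not matched for distance. With 15 to 19 CpGs, 1388 of the 3198 first-intron cytosines lay under 2 kb from the TSS, with a mean of 4.28%. At 20 kb and more, this class averaged 57.7% in first and 66.6% in later introns. Windows with 20 CpGs or more at that distance had the opposite order, with 19.7% in first and 17.2% in later introns.

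Within single transcripts, 1672 had at least 4 cytosines in the first and 4 in later introns. The later introns exceeded the first by 13.9, 14.2, 14.4 and 14.2 points on average over transcripts, in the same order of mice, a mean of 14.1 ± 0.204 (exact sign-flip permutation p = 0.13), and the median transcript differed by 8.34 points. The first intron was lower in all 4 mice in 993 transcripts (59.4%) and higher in all 4 in 409, and in 270 the direction differed between mice. A difference of 20 points or more in every mouse was found with the first intron lower in 510 transcripts and with the first intron higher in 97. The first intron was below 20% with later introns above 50% in 178 transcripts, and 13 had the opposite pattern.

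Among transcripts with 10 or more cytosines in each part, the 5 with the lowest first intron relative to the later ones were Dcaf5, Trp53, Sfmbt2, Lrp4 and Col2a1. Dcaf5, a substrate receptor of a ubiquitin ligase, had a first intron at 0.0377%, 0.0315%, 0.0472% and 0.0847% over 52 cytosines, with its later introns at 94.9%, 93.2%, 92.3% and 95.9%. Trp53, the gene of the tumour suppressor p53, had 0.0840% over 17 first-intron cytosines and 92.1% over 11 later ones, as means of the 4 mice. The first introns of Lrp4, a receptor of the low-density lipoprotein receptor family, and Col2a1, which encodes a cartilage collagen, averaged 0.331% and 1.14%, with later introns at 87.0% and 87.4%. In these 4 genes the first-intron cytosines lay between 1016 and 2758 bp from the TSS. Sfmbt2, a Polycomb group gene that is imprinted in mouse, had 1.35% over 17 first-intron cytosines and 90.3% in later introns. Its 17 cytosines lay from 4544 to 4773 bp from the TSS of the transcript, but their cluster lay 2557 bp from the nearest annotated TSS.

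The 5 transcripts with the opposite order were Dab2ip, Pacsin1, Nrxn2, Mxra7 and Srrm3. Dab2ip, a Ras GTPase-activating protein gene, had a first intron at 84.7% and 82.9% (Mixed) and 83.6% and 80.2% (B6) over 39 cytosines, and 145 later-intron cytosines at 22.7%, 24.3%, 23.5% and 24.4%. Pacsin1, a membrane-shaping protein of synapses, averaged 77.6% in the first and 22.0% in later introns. Nrxn2, a neurexin that joins synapses and has more than one promoter, averaged 83.1% over 13 first-intron cytosines and 33.3% over 199 later ones. The groups of values for first and later introns did not overlap between mice in any of these 10 transcripts, which were picked for their difference.

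**Figure D4:**
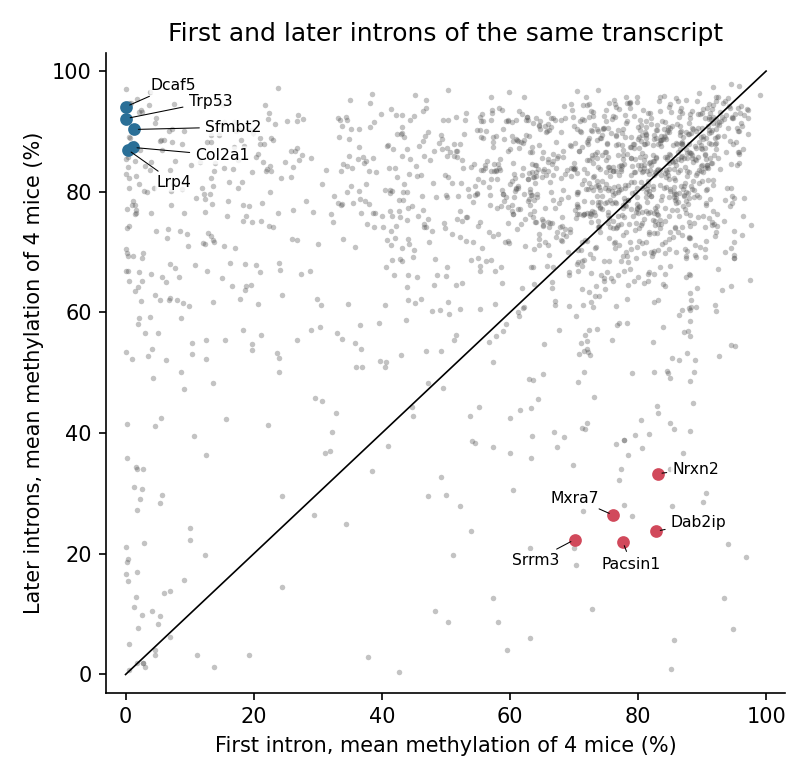
Mean methylation of the first intron (x axis, %) and of the later introns (y axis, %) of 1672 transcripts, each point the mean of 4 mice, with the line of equal values. Points above the line have the higher later introns, and the 10 named transcripts at the upper left and lower right are the largest differences in each direction among transcripts with 10 or more cytosines in each part.

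The 12909 low-methylated cytosines, those below 20% in every mouse, belonged to 1427 of the 4431 genes. Cytosines above 80% in every mouse were present in the same intron in 686 of these 1427 genes, against 2770 of all 4431 genes. Low cytosines were concentrated near the start, with 53.6% under 2 kb from the TSS of the transcript, but 2273 of them (17.6%) lay at 10 kb or more. The choice of low cytosines could be read in mice that had not made it. The 13642 cytosines below 20% in both B6 mice had means of 3.49% in Mixed-1 and 3.40% in Mixed-2, and 94.6% of them were below 20% in both Mixed mice. In reverse, the 13509 cytosines below 20% in both Mixed mice averaged 3.06% in B6-1 and 3.26% in B6-2.

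Low clusters numbered 833 (19.5% of clusters) in 691 genes and held 11829 cytosines. Their mean was 4.35%, 4.47%, 4.06% and 4.27%. High clusters numbered 1373 (32.1%) in 1001 genes. The low clusters started at a median of 1696 bp from the TSS and the high clusters at 19862 bp, and 65.4% of low but 8.67% of high clusters lay within 2 kb of some TSS. The 300 bp windows around the low clusters had a median of 14 CpGs and a GC content of 58.3%, against 7 CpGs and 51.0% around the high clusters. A GC content of at least 50% with a CpG ratio above 0.6, as in CpG islands, was found in 43.5% of low and 4.88% of high windows.

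The gene with the most low cytosines was Hoxd3, a homeobox gene that patterns the body axis. Its first intron (chromosome 2, 74712317 to 74743927, plus strand) held 117 measured cytosines, of which 110 were below 20% in every mouse, and its mean was 4.75% and 5.68% (Mixed) and 3.98% and 4.09% (B6). The low cytosines lay 16229 to 29232 bp from the TSS of the longest transcript and 6244 bp or more from any annotated TSS. Adgrb1, an adhesion G protein-coupled receptor gene, had all 95 cytosines of its first intron (chromosome 15, 74516867 to 74528929, plus strand) below 20%, with means of 2.23%, 2.02%, 1.77% and 2.00% in the same order of mice. Its later introns were low too, at 7.76% over 128 cytosines, of which 113 were below 20%.

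In several of the other genes the low cytosines lay near the start of another annotated transcript. Ywhaz encodes a 14-3-3 adaptor protein, and 93 of its 94 cytosines (intron at chromosome 15, 36790933 to 36802974, minus strand) were low, at 0.221%, 0%, 0.138% and 0.0739%. They lay 9690 bp or more from the TSS of the longest transcript but 1038 to 2084 bp from another one. Ptch1, the receptor of Hedgehog ligands, had 92 of 92 cytosines low (chromosome 13, 63563816 to 63573091, minus strand), at 0.0269%, 0.0999%, 0.167% and 0.177%, and they lay 1003 to 2573 bp from another TSS. The 77 low cytosines of Nr2f2, an orphan nuclear receptor gene, and the 70 of Cdkn1a, which encodes the cell cycle inhibitor p21, also had a TSS within 2 kb, with means of 0.445% and 0.137%.

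Near the bound itself lay the low cytosines of Igf2bp2, an RNA-binding protein gene, with 70 of 70 low at 0.499% ± 0.128 (SD, n = 4), 1356 to 1868 bp from the TSS. Klf13, a zinc finger factor gene, had 75 of 83 low cytosines, and Nol4l had 71 of 88, all of them within 2232 and 2065 bp of the TSS. The later introns of Igf2bp2 averaged 86.4% over 24 cytosines and those of Nol4l 78.0% over 14. Hs3st3b1, a heparan sulfate sulfotransferase gene, had 92 of 95 low, Hrk, an apoptosis gene, 84 of 90, Zmiz1, a transcriptional coregulator gene, 81 of 104, and Cadm1, a cell adhesion gene, 67 of 81. The 15 genes with the most low cytosines, to which all these and Maml3 belong, held 9.65% of all low cytosines.

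Maml3, a coactivator gene of Notch signalling, showed both states in one intron of 246602 bp (chromosome 3, 51857077 to 52103678, minus strand). Of its 183 cytosines, 85 were below 20% in every mouse and 46 were above 80%. The low ones lay 2131 bp or more from any annotated TSS, and 11 of the 85 lay 5 kb or more from the TSS of the transcript. The intron mean was 42.9% and 42.8% (Mixed) and 42.9% and 42.8% (B6), while its low cytosines were at 0.653%, 0.832%, 0.661% and 0.558%. Gse1 also held both states, with 36 low and 58 high cytosines among 200, the most measured cytosines of any first intron. Of its 36 low cytosines, 22 lay within 2 kb of the TSS of another annotated transcript. In Cdh22, 19 cytosines in a low cluster 38775 bp from the TSS averaged 9.29%, 10.2%, 10.2% and 10.4%, and 23 cytosines in a high cluster at 42384 bp averaged 86.5%, 89.4%, 86.5% and 87.4%. These are the 2 windows of Cdh22 printed above.

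**Figure D5:**
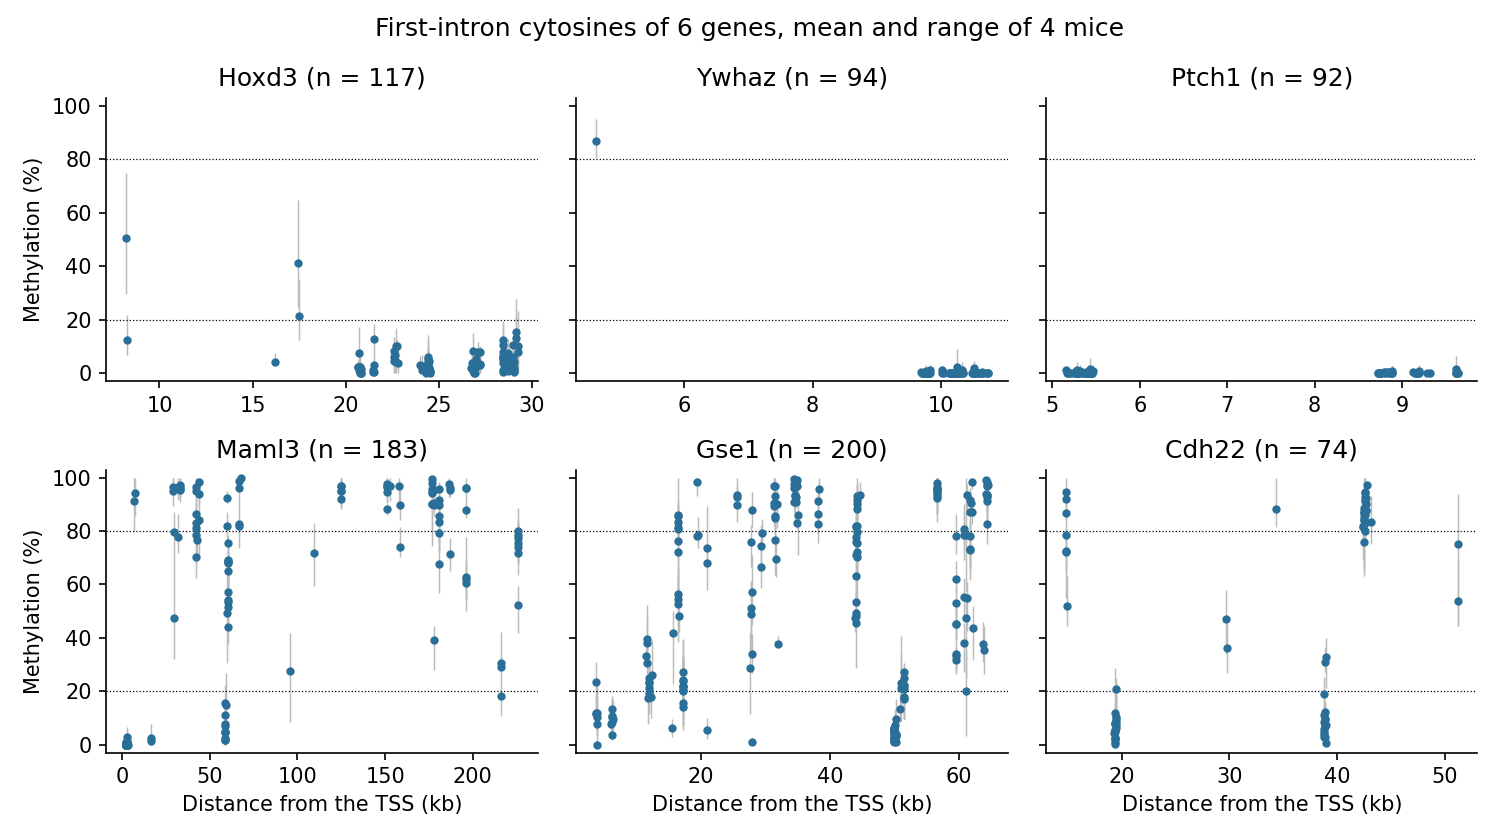
Methylation (y axis, %) of each first-intron cytosine of 6 genes by distance from the TSS (x axis, kb). Points are means of the 4 mice, grey lines span the lowest to the highest mouse, and dotted lines mark 20% and 80%. Hoxd3, Ywhaz and Ptch1 are low nearly throughout, while Maml3, Gse1 and Cdh22 alternate between low and high stretches.

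The genes with the most high cytosines were Grip1 with 60, Asic2 and Gse1 with 58 each, and Ank and Tshz2 with 48 each. Their introns were long, from 64432 bp in Gse1 to 996015 bp in Asic2, an acid-sensing ion channel gene. Ank, a pyrophosphate transporter gene, had 0 low cytosines among 55 and a mean of 89.2% and 91.0% (Mixed) and 88.7% and 89.6% (B6). Grip1, a scaffold protein gene of synapses, had 5 low cytosines among 95 and a mean of 80.2% ± 0.916 (SD, n = 4).

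Low clusters far from any annotated start were the rarer kind. At 10 kb or more from every TSS lay 85 of the 833 low clusters, against 752 of 1373 high clusters. The following were chosen after their values had been seen, by number of cytosines. Fam149a had 59 cytosines at 0.887%, 1.23%, 0.548% and 1.13%, 23438 bp from the nearest TSS. Hivep2, a zinc finger gene, had 40 cytosines at 0.210%, 0.223%, 0.0155% and 0.199%, 15694 bp from the nearest TSS, and its later introns averaged 73.9%. Prrx2, a homeobox gene of mesenchyme, had 48 cytosines at 7.83%, 8.22%, 7.33% and 7.29%, 19422 bp away. Hoxd3 followed with 41 cytosines at 5.03% ± 0.808 (SD, n = 4). Smaller clusters lay in Trps1 (30 cytosines, 3.34% ± 0.598), Pde4dip (29, 0.542% ± 0.126) and Arhgef17 (26, 8.40% ± 0.625). The windows of the 85 distal low clusters were less CpG-rich than those of all low clusters, with a median of 8 CpGs, and 16.5% met the island-like bounds.

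Short motifs were counted in the 300 bp windows on both strands and compared with 32544 RefSeq promoters of the same length. The SP1 box GGGCGGGG was present in 13.1% of low windows, 1.31% of high windows and 17.7% of promoters. The AP-1 motif TGANTCA was present in 6.12% of low and 9.10% of high windows, 8.82% of the windows of all clusters and 7.79% of promoters. In the 85 distal low windows its share was 18.8%. The NFI motif TTGGCA was present in 11.9% of low and 13.8% of high windows, 14.3% of all cluster windows and 14.1% of promoters. It was present in 17 of the 85 distal low windows. Distal high windows were not counted for motifs. The forkhead motif TGTTTAC was in 4.08% of low and 2.84% of high windows, against 4.03% of the windows of all 4272 clusters and 3.66% of promoters, and in 5 of the 85 distal low windows. The motif CAAAGTCCA of HNF4, a hepatocyte factor, was in 3 of 833 low, 3 of 1373 high and 0 of 85 distal low windows, against 0.375% of all clusters and 0.479% of promoters, counts too small to compare. The C/EBP motif TTGNGCAA was in 3.48% of low and 3.496% of high windows, and the E-box CACGTG was in 7.44% and 5.03%, against 6.02% of all clusters and 7.17% of promoters. None of the motifs contains another, and these shares are descriptions of the sequence.

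Lists of genes of the liver and of other lineages were set beside all genes, of which 691 of 4431 (15.6%) had a low cluster in the first intron. A cluster of any kind was present in 2430 genes, and the 691 are 28.4% of these. Developmental transcription factors of other lineages were the list with the most, with 34 of the 44 genes measured and of the 39 with any cluster. Their 873 cytosines averaged 18.8% in both Mixed mice, 17.8% in B6-1 and 18.4% in B6-2, and the median gene had 4.603%, against 73.1% over all genes. Lhx8, a LIM homeobox gene of the forebrain, had 63 cytosines at 1.08% ± 0.219 (SD, n = 4). Lhx4, a pituitary factor, had 35 at 1.77% ± 0.334 and Pax7, a factor of muscle stem cells, 33 at 1.59% ± 0.159.

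Hepatocyte transcription factors had a low cluster in 8 of 16 genes measured (11 with any cluster), and their 363 cytosines averaged 32.9% ± 1.04 (SD, n = 4). Nfia had 42 cytosines at 0.149% and 0.0268% (Mixed) and 0.167% and 0.168% (B6), which lay 196685 bp from the TSS of the longest transcript and 1002 bp from another. Foxa1, a pioneer factor of liver development, had 15 cytosines at 1.95%, 1.81%, 4.601% and 1.96%, and Nfix had 9 at 15.5%, 6.77%, 4.38% and 11.6%, of which Mixed-1 was the highest. Onecut2, a factor of hepatocyte and bile duct differentiation, had 27 at 2.16% ± 0.988. By contrast, genes of plasma proteins and lipoproteins were almost without measured cytosines. Of 48 listed, 2 had any, with 7 cytosines at a mean of 73.7% ± 1.46 and 0 low clusters. Among metabolic enzymes and transporters, 9 of 54 were measured and 1 had a low cluster, Glul, the glutamine synthetase gene of pericentral hepatocytes, with 9 cytosines at 14.2%, 12.2%, 10.02% and 8.89%.

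Insulin, glucocorticoid and growth factor signalling genes had a low cluster in 5 of 15 (13 with any cluster), among them Foxo1, a forkhead factor under insulin control (46 cytosines, 0.170% ± 0.188), and Irs1, an insulin receptor substrate (26 cytosines, 0.384% ± 0.420, 7905 bp from any TSS). Pik3r1, a regulatory subunit of PI3 kinase, had 14 cytosines at 0.518% ± 0.299, and Stat5b, which carries growth hormone signals, had 10 at 11.4% ± 2.39. The count was 2 of 6 for circadian clock genes, all 6 with a cluster, whose median gene had a mean of 68.7% and of which 3 were above 80%. Among them Nr1d1, the gene of the clock repressor REV-ERBα, had 37 cytosines at 0.356%, 0.429%, 0.137% and 0%, and Arntl, the gene of the clock activator BMAL1, had 7 at 5.58% ± 3.08. It was 2 of 6 for DNA methylation enzymes and readers, 5 of them with any cluster (Tet1 with 17 cytosines at 1.65% ± 0.494, and Dnmt3a with 4 at 0.221% ± 0.443). Among genes with a cluster, these small lists had a low one in 38.5% (signalling), 33.3% (clock) and 40% (methylation), against 28.4% of all genes, differences of 1 or 2 genes that set none of them apart. Neuronal genes had a low cluster in 8 of 20 (16 with any cluster), with an overall mean of 56.2% ± 0.960, against 52.9% over all first introns. Their largest low clusters were in Dlgap2 (35 cytosines, 1.90% ± 0.257), Cacna1c, a calcium channel gene (20, 2.93% ± 0.664), Mapt, the gene of tau (16, 2.67% ± 0.535), and Grin2a, a glutamate receptor gene (12, 2.50% ± 1.08). Immune cell markers had 1 of 5 (3 with any cluster), in Runx3, a lymphocyte factor, with 21 cytosines at 1.57% ± 1.25. Markers of endothelial, stellate and cholangiocyte cells had 4 of 13 (7 with any cluster), in Ngfr, Col1a1, Col3a1 and Flt1. Imprinted genes and hosts of imprinted retrogenes had 1 of 11 (9 with any cluster), in Sfmbt2. Among genes with a cluster, these lists had a low one in 33.3%, 57.1% and 11.1%. That share was 50% for neuronal genes, 72.7% for hepatocyte factors and 87.2% for developmental factors of other lineages. Lists differed in how many cytosines a gene had, from a median of 2 for metabolic enzymes to 13 for neuronal genes.

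RefSeq marks 1010 autosomal enhancers in this assembly, and 27 of them held 163 first-intron cytosines in 24 genes. These averaged 29.1% and 29.3% (Mixed) and 28.1% and 27.8% (B6), against 52.9% over all first-intron cytosines. Of the 163, 47.9% were below 20% in every mouse, against 28.8% of all first-intron cytosines. The 2 sets were not matched for distance from the TSS or for CpG density.

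The strains were compared last, a question the study raises for the hepatic methylome as a whole. The Mixed mice averaged 53.2% ± 0.281 (SD, n = 2) and the B6 mice 52.5% ± 0.275 (SD, n = 2) over first-intron cytosines, a difference of 0.713 points. The lowest Mixed mouse lay above the highest B6 mouse, and the two-sided exact permutation test gave p = 0.33, the smallest p that 2 mice against 2 allow. Later introns had the values given above, with B6-1 lowest and Mixed-2 highest as well. By class, the difference was 0.156 points for the cytosines with a mean below 20%, 1.44 points for those from 20% to 80% and 0.614 points for those above 80% (exact permutation p = 0.33 in each).

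Of the 44783 first-intron cytosines, 13 in 12 genes were called strain-variable by a logistic model with limma-moderated overdispersion (Benjamini-Hochberg adjusted p under 0.01 over all common cytosines and a difference of at least 25 points). This is 0.0290%, against 0.0201% of all 1276684 cytosines. In the Mixed mice, 9 were lower and 4 higher, where the background was 0.0143% for lower and 0.0058% for higher. With the replicate number as a block, 39 were called, against a background of 0.0516%, and these held all 13. That fit left 1 residual degree of freedom per cytosine and used 1 common overdispersion for all of them, so its calls rest on that value. The count also changed when 1 mouse was left out, which leaves a strain with 1 mouse. In later introns of the same transcripts, 20 of 56440 were called (0.0354%). In all, 381 first-intron cytosines differed by 25 points or more between strain means, and most of these did not pass the test. The share with such a difference over all common cytosines was not computed.

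Chromosome 17 held 7 of the 13 calls and 4.31% of the first-intron cytosines. In the whole table it held 113 of 257 calls. The cytosine with the lowest adjusted p was in Elk3, an ETS factor gene (chromosome 10, position 93301994), with 65.0% in Mixed-1, 80.4% in Mixed-2 and 0% in both B6 mice, at 51 to 87 reads (limma-moderated adjusted p = 4.19e-09). Uqcc2, an assembly factor gene of respiratory complex III, had both of its called cytosines lower in the Mixed mice. At chromosome 17, position 27129484, the values were 0%, 0%, 89.2% and 81.2% (adjusted p = 6.60e-09), and at position 27132632 they were 0%, 7.69%, 100% and 96.2% (adjusted p = 1.34e-05). In Mdga1, Ptk7 and Nudt3 the Mixed mice stood apart from each other, with 42.4% and 0% in Mdga1, 41.3% and 0% in Ptk7, and 56% and 3.70% in Nudt3, where both B6 mice were between 86.8% and 100%. Other calls were in Efs, with a Mixed minus B6 difference of -45.4 points, and in Rhog and Gse1, with differences of 49.2 and 47.2 points.

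Neighbouring cytosines did not follow the calls. Within 100 bp of each lay between 1 and 10 other common cytosines, and 0 of these differed between the strains by 25 points in the direction of the call. Around the Elk3 cytosine, 4 neighbours averaged 75.7% in the Mixed and 74.6% in the B6 mice. The cytosine on the opposite strand of the same CpG was measured for 4 of the 13. In Efs it was 95%, 100%, 100% and 88.2%, while the called cytosine was 23.6%, 34.3%, 75% and 73.7%, in the order Mixed then B6.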

How the data were processed

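The authors made ERRBS libraries of liver DNA from 4 mice, sequenced them as single-end reads of 50 cycles on a HiSeq2000 and aligned them to mm10 (GRCm38). The study's methods name BSMAP as the aligner, whereas the submitters' processing notes name Bismark and SAMtools. For each mouse on its own, the authors deposited the coverage of every CpG cytosine and strand as a count of reads, with a minimum of 10, and the shares of C and of T among them as percent. Bisulfite reads do not separate 5mC from 5hmC, nor an unmethylated cytosine from a T in the genome.

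Methylated reads were computed as percent times coverage. Cytosines were placed with the RefSeq GRCm38 annotation, and each strand of a CpG was 1 site. The members, gene lists and tests were chosen with earlier results of these data known. Named genes were the 15 with the most low and the 5 with the most high cytosines, genes of 11 lists with a low cluster (at most 4 a list), the 10 strain-variable cytosines with the lowest adjusted p, and the 5 transcripts with the largest difference in each direction. Tests were two-sided exact permutations over mice. Strains were compared per cytosine by a logistic model, whose overdispersion was moderated with limma 3.58.1 (R 4.3.3, data.table version 1.17.8) towards 1.88, estimated from cytosines between 5% and 95%, fitted over all common cytosines and tested on simulated data. Nothing in the labels links equally numbered mice of the 2 strains. Python 3.11.15, numpy 2.4.6, pandas 2.3.3, scipy 1.17.1 and matplotlib 3.10.9 were used. Single values rest on as few as 10 reads, which can be copies of 1 molecule, and the precision of the means comes from 4 mice. Cytosines of X and Y entered only that fit. The breakdowns by other TSSs, position and intron length and the 6 plotted genes were chosen after values were seen. A few genes that these rules name are not reported here.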

Additional observations from a re-analysis of the deposited data

How the results depend on the processing

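The difference between later and first introns, alone, within transcripts and at matched CpG density, the difference between far and near cytosines and the Mixed minus B6 difference kept their sign in every alternative run. The difference at matched distance, -0.194 points, changed sign in 6 of its alternatives, to 0.00414 with reads pooled, 0.0964 at 2 kb or more from any TSS, 0.601 without soft-masked bases, 4.06 without CpG-dense windows, and, in settings chosen after seeing the data, 2.79 with density matched too and 8.16 with all longest transcripts. Without 1 mouse each it ran from -0.254 to -0.137.

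The mean of the first introns (52.9%), the share below 20% in every mouse (28.8%) and the Mixed mean of cytosines low in both B6 mice (3.44%) moved in this order to 50.3%, 32.0% and 3.28% at a coverage minimum of 20, to 55.0%, 25.9% and 3.69% with strands merged, to 49.6%, 33.1% and 3.09% with TSSs of curated transcripts only, to 65.1%, 13.95% and 5.33% at 2 kb or more from any TSS, and to 63.6%, 14.5% and 5.91% without CpG-dense windows. The mean was 50.5% and the share 30.8% without soft-masked bases. Pooled reads gave a mean of 49.5% and a Mixed mean of 3.53%. Counting every intron once gave 62.7%. Bounds of 10% and 30% gave shares of 24.1% and 32.4%. Choosing in the Mixed mice gave 3.16% in the B6 mice. Without 1 mouse each, the share ran from 29.2% to 29.5% and the Mixed mean from 3.40% to 4.63%. By definition, leaving out a mouse or raising the bound can only keep or raise the share, and a lower bound can only keep or lower it. The limit of 2 kb took out cytosines that averaged 16.8% at 1 to 1.5 kb and 30.8% at 1.5 to 2 kb from any TSS. The cause of the other shifts was not tested.

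The 13 strain-variable calls became 105 by Fisher's exact test on pooled reads, 21 at an adjusted p under 0.05, 11 at a coverage minimum of 20 and 9 at a difference of 50 points. The share called over all common cytosines was not computed under these settings, so these counts cannot be set against a background. The numbers of the mice did not pair them (same-numbered mice had a correlation of deviations of 0.00232), and with these numbers as a replicate block 39 were called, while the mean strain difference stayed 0.713 points by construction (0.708 for number 1 and 0.717 for number 2). Without 1 mouse each, between 12 and 46 were called: 46 without Mixed-2, 25 without B6-1, 22 without B6-2 and 12 without Mixed-1, with 7, 11, 12 and 9 of the 13 among them. A strain with 1 mouse left was assumed to vary like the other. Single cytosines were limited by coverage, which was lower in the Mixed mice.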
